A study of Homo sapiens with 4 samples.

Results

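Long noncoding RNAs were followed in CaSki cells, a human papillomavirus-positive cervical squamous carcinoma line, labelled as given GFP or the zinc finger protein ZNF750. They were taken as the probe sets of the Affymetrix HG-U133 Plus 2.0 array whose annotation gives 1 gene symbol of the form LINC plus a number, a symbol ending in -AS plus a number, SNHG plus a number or a MIR host gene (MIR...HG), or the symbols MALAT1 and NEAT1. Members were selected on their measured level: a probe set had to reach a mean log2 value of 6 over all 4 arrays. Of 54613 probe sets that are not controls, 2249 carried such a symbol alone, for 1668 genes, and 312 of these, for 263 genes, reached the mean. The mean over both groups let in 21 probe sets whose GFP mean was under 6, of which 5 were later called higher (LINC00467, LINC01410, LINC02985, CKMT2-AS1 and PRKAG2-AS1), and 10 whose ZNF750-labelled mean was under 6, of which 1 was called lower (PAX8-AS1, 227474_at). For these the choice of members is not independent of the difference. Just inside it lay ASMTL-AS1 (244875_at), LINC01718 and PXN-AS1, each with a mean of 6.00, and just outside it LOXL2-AS1 (5.99), HHIP-AS1 and EML2-AS1 (both 6.00 after rounding). None of NEAT1's 9 probe sets carried its symbol alone, so NEAT1 has no member, and 71 further probe sets with a mean of 6 or more were left out because a matching symbol stood beside another. Of the 263 genes, 258 are classed as lncRNA and 1 as antisense RNA in RefSeq, and 4 were not matched by gene identifier.

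Both groups received a lentiviral construct. By their labels the control cells carried GFP and the others ZNF750, with 2 arrays each, numbered as replicates. The labels do not say whether the cells were clones or pools, when they were harvested or whether the replicates were separate cultures, so p-values measure the spread between these arrays, which may be technical. The growth label gives the serum content as 0%. The epithelial identity matched the label: of 10 epithelial and squamous markers 9 were measured, with means between 10.97 and 14.50. Their levels were not all stable between the groups. KRT14 (1.10 ± 0.035), KRT5 (0.24 ± 0.031) and KRT19 (0.16 ± 0.037) were higher with the ZNF750 label. KRT18 (-0.34 ± 0.043) and CDKN2A (-0.29 ± 0.045) were lower, and 4 did not pass. The 4 leukocyte markers measured lay between 3.95 and 5.88 and the endothelial markers between 3.01 and 6.06. Of 4 neural markers, with means of 5.41 to 6.36 and summed levels of 22.58 with GFP and 23.58 with the ZNF750 label, MAP2 was higher with the ZNF750 label (0.68 ± 0.14, limma adjusted p = 0.0199). Its part in the lncRNA differences was not tested. Of the fibroblast markers 1 of 6, COL1A1, had a mean above 6 (8.36). The single ZNF750 probe set (219995_s_at) read 2.13 and 2.37 in the GFP arrays and 2.23 and 2.29 in the others, values that overlapped. The positions of its probes were not used here, so it checks nothing about an introduced coding sequence, and the introduction of ZNF750 rests on the label alone. The group is called ZNF750-labelled.

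Long noncoding RNAs are transcripts that are not translated into a known protein. Many stay in the nucleus, where some organise nuclear bodies or act on nearby genes. Some are spliced to release small nucleolar RNAs or microRNAs from their introns or exons, and some are read from the strand opposite a coding gene. An array reads the processed long transcript and not the small RNA within it.

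More lncRNA probe sets were higher than lower in the ZNF750-labelled arrays. Of the 312, 37 were higher (11.9%) and 13 were lower (4.17%), and 262 did not pass (limma, Benjamini-Hochberg adjusted p under 0.05 over all probe sets). Over all 54613 probe sets, 4.3% were higher and 7.19% lower, together 11.5%. Over the 22522 probe sets with a mean of 6 or more, 7.65% were higher and 15.7% lower, together 23.4%. The higher lncRNA probe sets belonged to 28 genes and the lower to 13, with PAX8-AS1 in both. Of these 40 genes, 24 had several probe sets that carried their symbol alone, at any level. In 3 of the 24 every probe set passed, and in 17 only 1 did. MALAT1 alone gave 8 of the higher probe sets, and without it 29 of 303 (9.57%) were higher and 13 lower. Among the 281 probe sets with both group means at 6 or more, a restriction added after the data were seen, 32 were higher and 12 lower. In bulk RNA, a change in the share of cells that make a transcript and a change in RNA per cell cannot be told apart.

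Most differences were small. The median log2 difference, ZNF750-labelled minus GFP, was 0.096 over the lncRNA probe sets, 0.026 over all probe sets and -0.032 over those with a mean of 6 or more. It was above 0 in 210 of the 312 probe sets (67.3%) and in 44% of all probe sets of that brightness. In 141 (45.2%) both ZNF750-labelled arrays lay above both GFP arrays and in 52 (16.7%) both lay below, against 28.7% and 39.7% of all probe sets with a mean of 6 or more. By median, the surplus of higher values was present in each range of brightness. For means from 6 to 7 the median difference was 0.105 in 203 lncRNA probe sets and 0.007 in all, for 7 to 8 it was 0.099 in 68 and -0.043 in all, and for 8 or more it was 0.026 in 41 and -0.054 in all. In the last range 8 of the 41 were higher (19.5%) and 6 lower (14.6%), against 10.2% and 21.7% of all. By gene these were 5 higher, MALAT1 among them, and 6 lower. An absolute difference of at least 0.5 log2 units was found in 30 lncRNA probe sets and of at least 1 in 4. Among the 1937 probe sets with a matching symbol and a mean under 6, 44 were higher (2.27%) and 5 lower (0.258%). Their median difference was 0.087, with 71.9% above 0, at a median level of 4.04. Over all probe sets of any brightness 55.5% were above 0. Shares over all probe sets with a mean under 6 were not computed, so whether dim lncRNA probe sets differ from other dim ones was not tested.

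The split depended on the centring. Centred on probe sets with a mean of 6 or more, 58 lncRNA probe sets were higher with a median of 0.159, and over all probe sets 4476 were higher and 3406 lower, against 2348 and 3927 as deposited. Without limma's intensity trend 20 lncRNA probe sets were higher and 4 lower, against 520 and 754 over all 54613 probe sets. These counts also rested on all 4 arrays. Leaving out 1 array leaves 1 array in a group, and most calls were then lost over all probe sets, not only among the lncRNA probe sets. Counts from such fits are therefore not compared. Without ZNF750 replicate 1 and without ZNF750 replicate 2, the differences were 1.17 and 1.44 for LINC00520 and 1.16 and 0.86 for MALAT1 (224567_x_at). They were 0.85 in both for LINC00518, and 0.94 and 0.93 for ZNF232-AS1 (236075_s_at). All 48 of the called probe sets named in the text by rule kept their sign when any 1 array was left out. Their groups do not overlap, so no sign could change, and this adds no support. The difference between the 3′ and 5′ probe sets of ACTB, which grows as RNA is broken or copied short, was 3.03 and 2.81 in the GFP arrays and 3.76 and 3.35 in the ZNF750-labelled arrays, so it moved with the groups, and its part in the lncRNA differences was not tested.

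**Figure D1:**
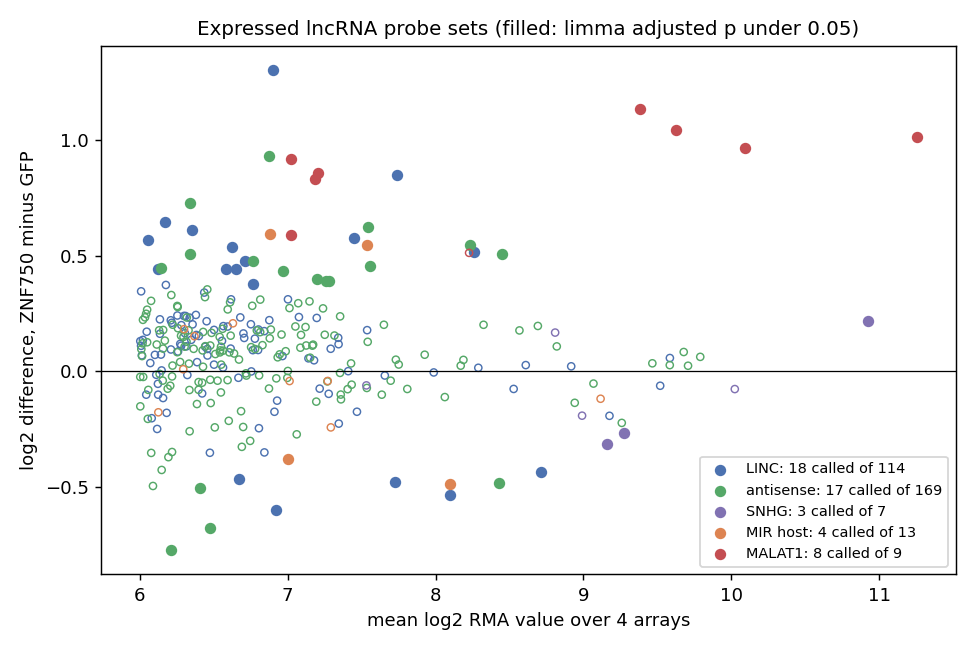
Log2 difference, ZNF750-labelled minus GFP (vertical axis), against the mean log2 value over the 4 arrays (horizontal axis) for the 312 lncRNA probe sets, coloured by class, with filled points for those with a limma adjusted p under 0.05. The 37 filled points above 0 outnumber the 13 below it, and MALAT1 contributes 8 of them.

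MALAT1, an abundant RNA retained in nuclear speckles, where splicing factors gather, was higher in the ZNF750-labelled arrays. All 9 of its probe sets in the set had both ZNF750-labelled arrays above both GFP arrays, and 8 passed. Probe set 224567_x_at read 10.80 and 10.69 in the GFP arrays and 11.61 and 11.91 in the ZNF750-labelled arrays. Probe set 226675_s_at read 8.86 and 8.77 with GFP and 9.73 and 10.17 with the ZNF750 label. The groups were separated by more than the gap between duplicates in both. The differences were 1.01 ± 0.091 log2 units (2.02-fold, ± is limma's standard error throughout, n = 2 arrays per group, adjusted p = 0.00132) and 1.13 ± 0.13 (2.19-fold, adjusted p = 0.00292).

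The other MALAT1 probe sets that passed rose by 0.59 (224568_x_at) to 1.04 (224558_s_at) log2 units. All 8 that passed end in _x_at or _s_at, the manufacturer's mark for probes shared between transcripts. Probe set 224559_at, without that suffix, read 7.90 and 8.04 with GFP and 8.26 and 8.70 with the ZNF750 label, a difference of 0.51 ± 0.14 that missed the threshold (adjusted p = 0.0542). It passed after cyclic loess (adjusted p = 0.0313), with dim probe sets left out (0.0254) and with the replicate block (0.0378). These are settings in which 224559_at passed, and it did not pass in all of those tried. The array holds 3 more MALAT1 probe sets with means under 6, which differed by 0.20, 0.31 and 0.36 and did not pass.

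**Figure D2:**
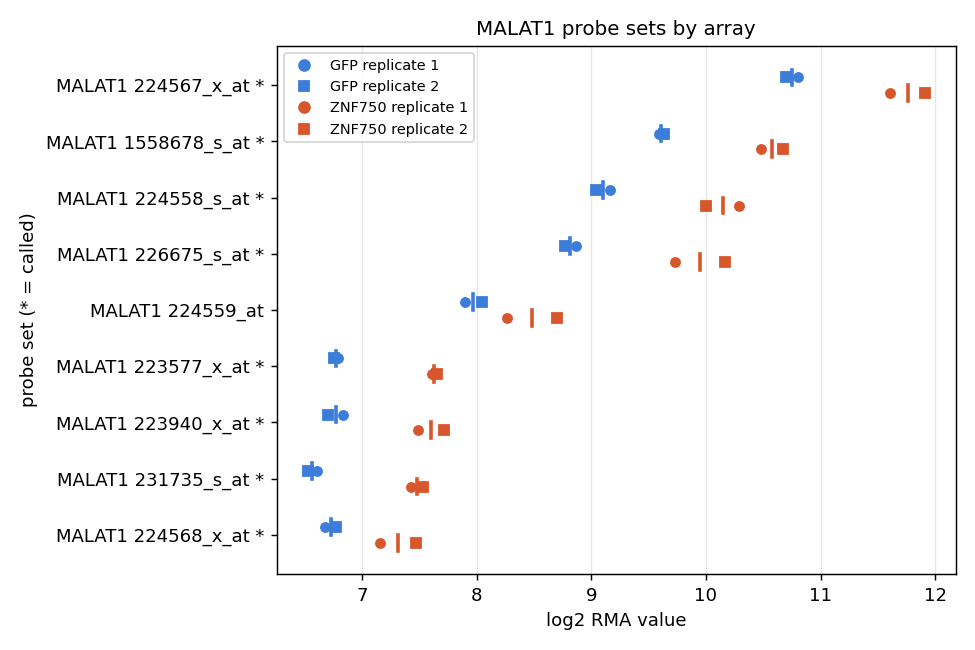
Log2 values (horizontal axis) of the 9 MALAT1 probe sets with a mean of 6 or more (vertical axis), with 1 point for each of the 4 arrays and a bar at each group's mean. In every probe set both ZNF750-labelled arrays lie above both GFP arrays, and the probe set without an asterisk, 224559_at, did not pass.

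Genes for the proteins of the bodies near MALAT1 did not rise with it as a list. Of 13 measured paraspeckle proteins, which bind NEAT1 in bodies beside the speckles, 2 rose and 5 fell, and the median difference was -0.052. PSPC1, a core paraspeckle protein, rose (0.28 ± 0.067), and RBM14 (-0.36 ± 0.057), HNRNPA1 (-0.33 ± 0.053) and TARDBP (-0.32 ± 0.046) fell. Of 14 nuclear speckle and splicing factors, 0 rose by limma's adjusted p (1 was higher and 4 lower at an unadjusted p under 0.05) and 4 fell, with a median of -0.063. SRSF7 (-0.42 ± 0.067), SRSF6 (-0.28 ± 0.045) and SRRM1 (-0.25 ± 0.056) fell, and the kinase gene CLK4 differed by -0.22 ± 0.14 without passing. Over 19775 genes, each at its probe set of highest mean, 6.39% were higher and 8.75% lower, with a median of 0.036. All 13 and 14 genes of these lists had means of 6 or more. Of all probe sets with such means 7.65% were higher and 15.7% lower, with a median of -0.032.

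Small nucleolar RNA host genes (SNHG) are spliced and often short-lived transcripts whose introns carry the guide RNAs of ribosomal RNA modification. Their 7 probe sets, for 5 genes, moved both ways and little: 1 was higher, 2 were lower and 4 did not pass (median difference -0.078). These were 14.3% and 28.6%, against 7.65% and 15.7% of all probe sets with a mean of 6 or more (median -0.032). A set of 7 is too small to compare these shares. SNHG32 read 10.78 and 10.85 with GFP and 11.04 and 11.03 with the ZNF750 label, a rise of 0.22 ± 0.046 (1.16-fold, adjusted p = 0.0250). SNHG19 read 9.35 and 9.28 with GFP and 9.09 and 8.92 with the ZNF750 label, a fall of 0.31 on the log2 scale (SE 0.073, adjusted p = 0.0347). In both, the duplicates lay closer to each other than to the other group.

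SNHG17 had a pair of probe sets. On 65588_at it read 9.41 in both GFP arrays and 9.14 in both ZNF750-labelled arrays, a difference of -0.27 ± 0.055 (adjusted p = 0.0214). On 225857_s_at the difference was -0.08 ± 0.050 and did not pass. SNHG18 differed by -0.19 ± 0.065 (adjusted p = 0.108), and the probe sets of SNHG33 by 0.17 ± 0.071 and -0.06 ± 0.089, none passing. Without limma's intensity trend, none of the SNHG calls passed (adjusted p = 0.119 for SNHG17, 0.133 for SNHG19 and 0.181 for SNHG32).

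Of 14 measured proteins that assemble small nucleolar ribonucleoproteins, 0 rose by limma's adjusted p (2 were higher and 5 lower at an unadjusted p under 0.05) and 1 fell, ZNHIT6 (-0.57 ± 0.068), a box C/D assembly factor. Over all 19775 genes 6.39% were higher and 8.75% lower. All 14 had means of 6 or more, and of all probe sets with such means 7.65% were higher and 15.7% lower. NAF1 (-0.24), SHQ1 (0.21) and GAR1 (-0.19) did not pass. SNHG transcripts share a pyrimidine-rich start, the 5′ TOP, with many translation genes. Of 14 such mRNAs measured, 2 rose and 3 fell: TPT1 (0.19 ± 0.028) rose, and HNRNPA1 (-0.33), EIF3F (-0.31 ± 0.034) and RPS6 (-0.22 ± 0.044) fell. Several SNHG transcripts are degraded by nonsense-mediated decay. Of 10 genes of that pathway, 0 rose by limma's adjusted p (0 were higher and 3 lower at an unadjusted p under 0.05) and 2 fell, the cap-binding gene NCBP1 (-0.52 ± 0.093) and RBM8A (-0.40 ± 0.053), an exon junction protein, while SMG8 (-0.19) and UPF2 (0.18) did not pass.

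MicroRNA host genes contain a microRNA hairpin in their transcript. All 12 host genes enclosed at least 1 mature microRNA in the RefSeq tables (GRCh38.p14). The microRNAs of the 4 hosts that changed are printed because the array reads the host and not the microRNA. Capitals mark the seed, bases 2 to 8, which pairs with targets. The last line is a microRNA of MIR200CHG, which did not pass, shown because its seed is that of hsa-miR-550a-3p.
hsa-miR-205-5p (chr1:209432166-209432187, plus strand): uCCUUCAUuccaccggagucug
hsa-miR-205-3p (chr1:209432203-209432223, plus strand): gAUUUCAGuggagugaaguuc
hsa-miR-210-3p (chr11:568112-568133, minus strand): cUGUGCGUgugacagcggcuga
hsa-miR-210-5p (chr11:568150-568171, minus strand): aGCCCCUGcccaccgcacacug
hsa-miR-550a-3p (chr7:29680748-29680769, minus strand): uGUCUUACucccucaggcacau
hsa-miR-550a-3-5p (chr7:29680789-29680808, minus strand): aGUGCCUGagggaguaagag
hsa-miR-570-5p (chr3:195699425-195699446, plus strand): aAAGGUAAuugcaguuuuuccc
hsa-miR-570-3p (chr3:195699460-195699481, plus strand): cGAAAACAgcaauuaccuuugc
hsa-miR-200c-5p (chr12:6963703-6963724, plus strand): cGUCUUACccagcaguguuugg

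Of the 13 microRNA host probe sets, 2 were higher, 2 were lower and 9 did not pass (median difference -0.042). Each direction was 15.4%, against 7.65% higher and 15.7% lower of all probe sets with a mean of 6 or more (median -0.032). The share that fell was thus near that of all such probe sets, and 13 are few to compare. MIR210HG, host of the hypoxia-associated miR-210, read 6.54 and 6.63 with GFP and 7.13 and 7.23 with the ZNF750 label, a rise of 0.59 ± 0.089 (1.51-fold, adjusted p = 0.00736). MIR550A3HG read 7.31 and 7.21 with GFP and 7.80 and 7.81 with the ZNF750 label, a rise of 0.55 ± 0.078 (1.46-fold, adjusted p = 0.00584). Second probe sets of both genes, with means under 6, differed by 0.38 ± 0.13 and 0.17 ± 0.12 and did not pass.

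MIR205HG, host of miR-205, a microRNA of basal and squamous epithelia, read 8.48 and 8.21 with GFP and 7.94 and 7.78 with the ZNF750 label. Its fall of 0.49 on the log2 scale (SE 0.11, adjusted p = 0.0263) came with a gap between the GFP duplicates of about the same size as the gap between the groups' nearest arrays. MIR570HG read 7.22 and 7.17 with GFP and 6.78 and 6.85 with the ZNF750 label, a difference of -0.38 ± 0.083 (adjusted p = 0.0276), and its other probe set, with a mean under 6, gave 0.07 ± 0.15. Without the intensity trend neither MIR205HG (adjusted p = 0.0980) nor MIR570HG (0.0748) passed, and MIR570HG averaged over its probe sets differed by -0.16 (0.273). MIR31HG, a host near the CDKN2A locus, read 7.55 and 7.28 with GFP and 7.19 and 7.15 with the ZNF750 label, a difference of -0.24 ± 0.10 that did not pass (adjusted p = 0.194).

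The remaining host probe sets, of MIR181A2HG, MIR1915HG, MIR200CHG, MIR3936HG, MIR9-3HG, MIRLET7BHG and MIR1-1HG, differed by -0.18 to 0.21 and did not pass. MIR200CHG, host of the epithelial miR-200c and miR-141, read 6.25 and 6.33 with GFP and 6.56 and 6.03 with the ZNF750 label, so its groups overlapped. Of 15 measured genes of microRNA processing, 1 rose and 3 fell, against 6.39% higher and 8.75% lower over all 19775 genes. Means of 6 or more were found for 14 of the 15, and of all probe sets with such means 7.65% were higher and 15.7% lower. LIN28B, which blocks let-7 maturation, rose (0.81 ± 0.12) at a low level (mean 4.02), and AGO3 (-0.43 ± 0.10), PRKRA (-0.41 ± 0.068) and AGO2 (-0.27 ± 0.069), which load or carry the mature strand, fell.

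**Figure D3:**
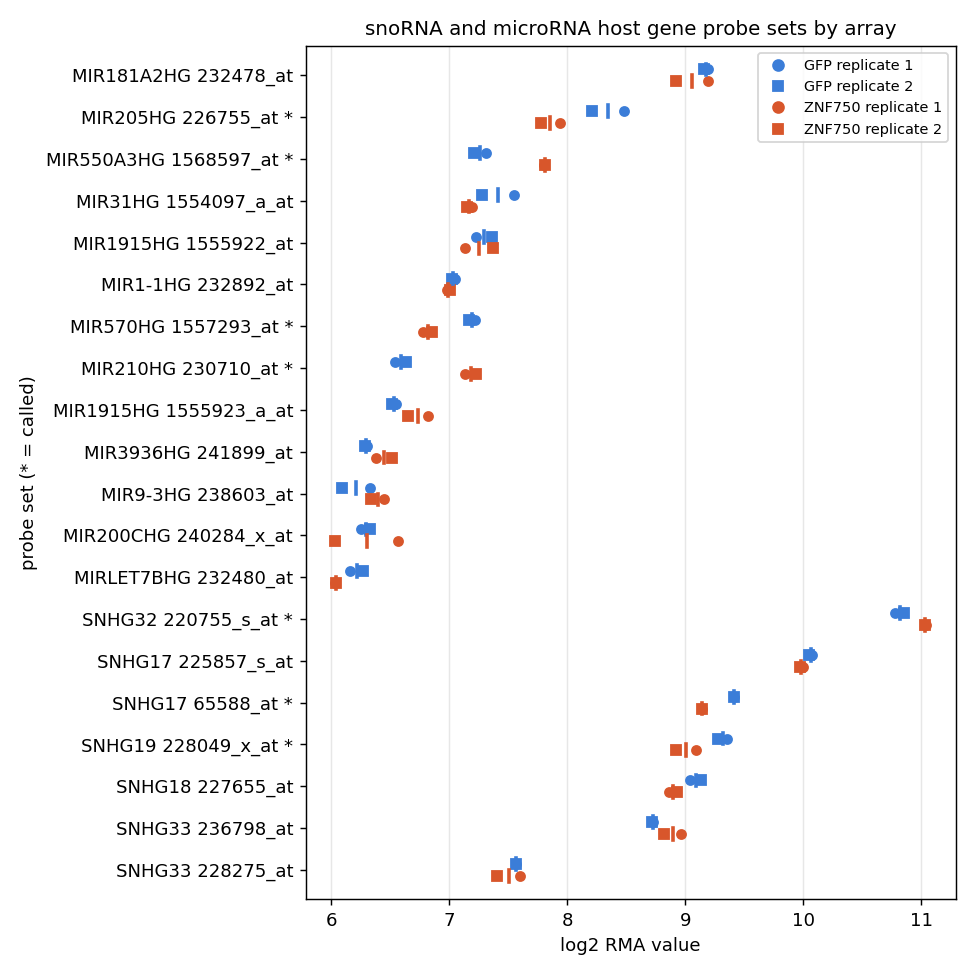
Log2 values (horizontal axis) of the 7 SNHG and 13 microRNA host probe sets (vertical axis), with 1 point per array, a bar at each group's mean and an asterisk on those that passed. MIR210HG and MIR550A3HG are higher and MIR205HG and MIR570HG lower in the ZNF750-labelled arrays, and MIR200CHG overlaps.

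Long intergenic RNAs (LINC) were mostly higher where they changed. Of 114 probe sets for 95 genes, 13 were higher, 5 were lower and 96 did not pass (median difference 0.108). These were 11.4% and 4.39%, against 7.65% and 15.7% of all probe sets with a mean of 6 or more. LINC00520 had the largest rise among all 312 lncRNA probe sets: it read 6.36 and 6.14 with GFP and 7.69 and 7.41 with the ZNF750 label, a difference of 1.30 ± 0.12 (2.47-fold, adjusted p = 0.00147) on an _s_at probe set. LINC00518 read 7.33 and 7.30 with GFP and 8.17 and 8.16 with the ZNF750 label, a difference of 0.85 ± 0.071 (1.80-fold, adjusted p = 0.00101). For both genes the groups lay far apart relative to their duplicates. A dimmer LINC00518 probe set (mean 3.27) differed by 0.18 and did not pass.

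LINC01410 read 5.87 and 5.83 with GFP and 6.49 in both ZNF750-labelled arrays (0.64 ± 0.094, 1.56-fold, adjusted p = 0.00632). LINC00957 passed on both of its probe sets with a mean of 6 or more, by 0.58 ± 0.080 and 0.52 ± 0.067, but on none of the 3 dimmer ones (0.07 to 0.28). LINC02481 also passed on both of its probe sets, by 0.61 ± 0.095 and 0.54 ± 0.12, the second not without limma's intensity trend (adjusted p = 0.0903). LINC00467 (0.57 ± 0.11), LINC01806 (0.48 ± 0.088), LINC02985, LINC03011 and LINC02239 (0.44 each) and LINC00205 (228909_at, 0.38 ± 0.092) made up the rest of those that rose. The other 3 LINC00205 probe sets with a mean of 6 or more gave 0.18, 0.24 and 0.31 and did not pass. Of these, LINC00467, LINC01806, LINC02985, LINC03011, LINC02239 and LINC00205 did not pass without the intensity trend (adjusted p from 0.0536 to 0.0889), nor did LINC02985 (0.0691), LINC03011 (0.0518), LINC02239 (0.0750) and LINC00205 (0.0631) with the replicate block. The mean of probe sets ended the calls of LINC01806 (0.20, adjusted p = 0.116), LINC02239 (0.34, 0.0722) and LINC00205 (0.25, 0.0934).

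Among the LINC genes that fell, LINC01963 read 7.18 and 7.26 with GFP and 6.69 and 6.55 with the ZNF750 label, a difference of -0.60 ± 0.092 (adjusted p = 0.00770). LINC01116, which lies beside the HOXD cluster, read 8.36 and 8.38 with GFP and 7.81 and 7.85 with the ZNF750 label, a difference of -0.54 ± 0.068 (adjusted p = 0.00401). LINC00667 (-0.48 ± 0.072), LINC00938 (-0.47 ± 0.093) and LINC00621 (-0.43 ± 0.060) fell too and did not pass without the intensity trend (adjusted p = 0.0508, 0.0626 and 0.0568). LINC00667 fell on 228160_at alone: 226235_at gave -0.01 ± 0.068 and 215283_at 0.02 ± 0.064, and averaged over its probe sets it differed by -0.04 (adjusted p = 0.738). LINC00938 averaged in this way differed by -0.17 (0.280).

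Coding genes that flank the changed LINC, SNHG, microRNA host and MALAT1 genes in RefSeq were looked up, and those named here were chosen after their values were seen. Of 38 measured neighbours of 22 genes, 5 were higher, 5 lower and 28 did not pass, against 6.39% higher and 8.75% lower over all 19775 genes. Of the 10 that passed, 7 moved the way of their lncRNA gene and 3 the other way, a count given as a description. S100P, which follows LINC02481 and encodes a calcium-binding protein, rose by 1.41 ± 0.13 (2.66-fold, adjusted p = 0.00147). TFAP2A, an epithelial transcription factor gene (0.23 ± 0.041), and GCNT2 (0.48 ± 0.10), on either side of LINC00518, rose as well. ANO6 beside LINC00938 (-0.51 ± 0.065) and MARCHF4 beside LINC01963 (-0.40 ± 0.068) fell. KTN1 beside LINC00520 (-0.38 ± 0.067), POFUT2 beside LINC00205 (-0.32 ± 0.075) and TPST1 beside LINC03011 (-0.45 ± 0.082) fell while the lncRNA rose.

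Antisense genes, named after the coding gene on the opposite strand, made up the largest class. Of 169 probe sets for 150 genes, 13 were higher, 4 were lower and 152 did not pass (median difference 0.083). These were 7.69% and 2.37%, against 7.65% and 15.7% of all probe sets with a mean of 6 or more. The share that rose was thus near that of all such probe sets, and the share that fell was smaller. ZNF232-AS1 (236075_s_at) read 6.33 and 6.48 with GFP and 7.33 and 7.35 with the ZNF750 label, a difference of 0.93 ± 0.091 (1.91-fold, adjusted p = 0.00167), and its other probe set gave 0.32 without passing. CKMT2-AS1 read 5.99 and 5.96 with GFP and 6.74 and 6.66 with the ZNF750 label, a difference of 0.73 ± 0.093 (1.65-fold, adjusted p = 0.00420). NNT-AS1 read 7.996 and 7.924 with GFP and 8.51 and 8.50 with the ZNF750 label, a difference of 0.55 ± 0.068 (1.46-fold, adjusted p = 0.00378). None of the 3 had overlapping groups, which was common: of all probe sets with a mean of 6 or more, 28.7% lay wholly above and 39.7% wholly below.

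SLC9A3-AS1 (0.51 ± 0.066), FUT8-AS1 (0.50 ± 0.10), DLGAP1-AS1 (0.48 ± 0.092) and C10orf95-AS1 (0.45 ± 0.075) rose by about as much, and FUT8-AS1 and C10orf95-AS1 rose on a second, dimmer probe set as well (0.60 and 0.71). PRKAG2-AS1 (0.45 ± 0.11), ELOA-AS1 (0.43 ± 0.085), ATP2A1-AS1 (0.40 ± 0.10), EMC3-AS1 (0.39 ± 0.085) and CCDC18-AS1 (0.39 ± 0.085) also passed. Without the intensity trend FUT8-AS1, DLGAP1-AS1, C10orf95-AS1, PRKAG2-AS1, ELOA-AS1, ATP2A1-AS1, EMC3-AS1 and CCDC18-AS1 did not (adjusted p from 0.0567 to 0.110), and with the replicate block ATP2A1-AS1 (0.0872), PRKAG2-AS1 (0.0551) and CCDC18-AS1 (0.0519) did not. Of those that fell, ZNF143-AS1 read 6.87 and 6.77 with GFP and 6.21 and 6.07 with the ZNF750 label (-0.68 ± 0.098, adjusted p = 0.00636). KCNJ5-AS1 (-0.50 ± 0.12, adjusted p = 0.0413) and PSMA3-AS1 (-0.48 ± 0.12, 0.0407) passed narrowly and did not pass without the intensity trend (0.0984 and 0.124). The mean of probe sets ended the calls of PSMA3-AS1 (-0.34, adjusted p = 0.0770) and PRKAG2-AS1 (0.29, 0.0663). Dimmer probe sets of CKMT2-AS1 (0.27), DLGAP1-AS1 (0.14), PRKAG2-AS1 (0.05 and 0.36) and PSMA3-AS1 (-0.13 and -0.40) did not pass.

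PAX8-AS1, which lies in the gene of the transcription factor PAX8, passed in both directions. Probe set 228425_at read 7.30 and 7.16 with GFP and 7.81 and 7.90 with the ZNF750 label, a rise of 0.63 ± 0.085 (adjusted p = 0.00505). Probe set 227474_at read 6.68 and 6.51 with GFP and 5.83 and 5.82 with the ZNF750 label, a difference of -0.77 ± 0.10 (adjusted p = 0.00466), the largest fall of the 312. Another probe set, with a mean under 6, gave -0.10 without passing, and the mean of the probe sets was -0.08. It was the only gene with calls both ways among the 35 with more than 1 probe set in the set, 9 of which had a called probe set and 16 of which had differences of both signs.

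**Figure D4:**
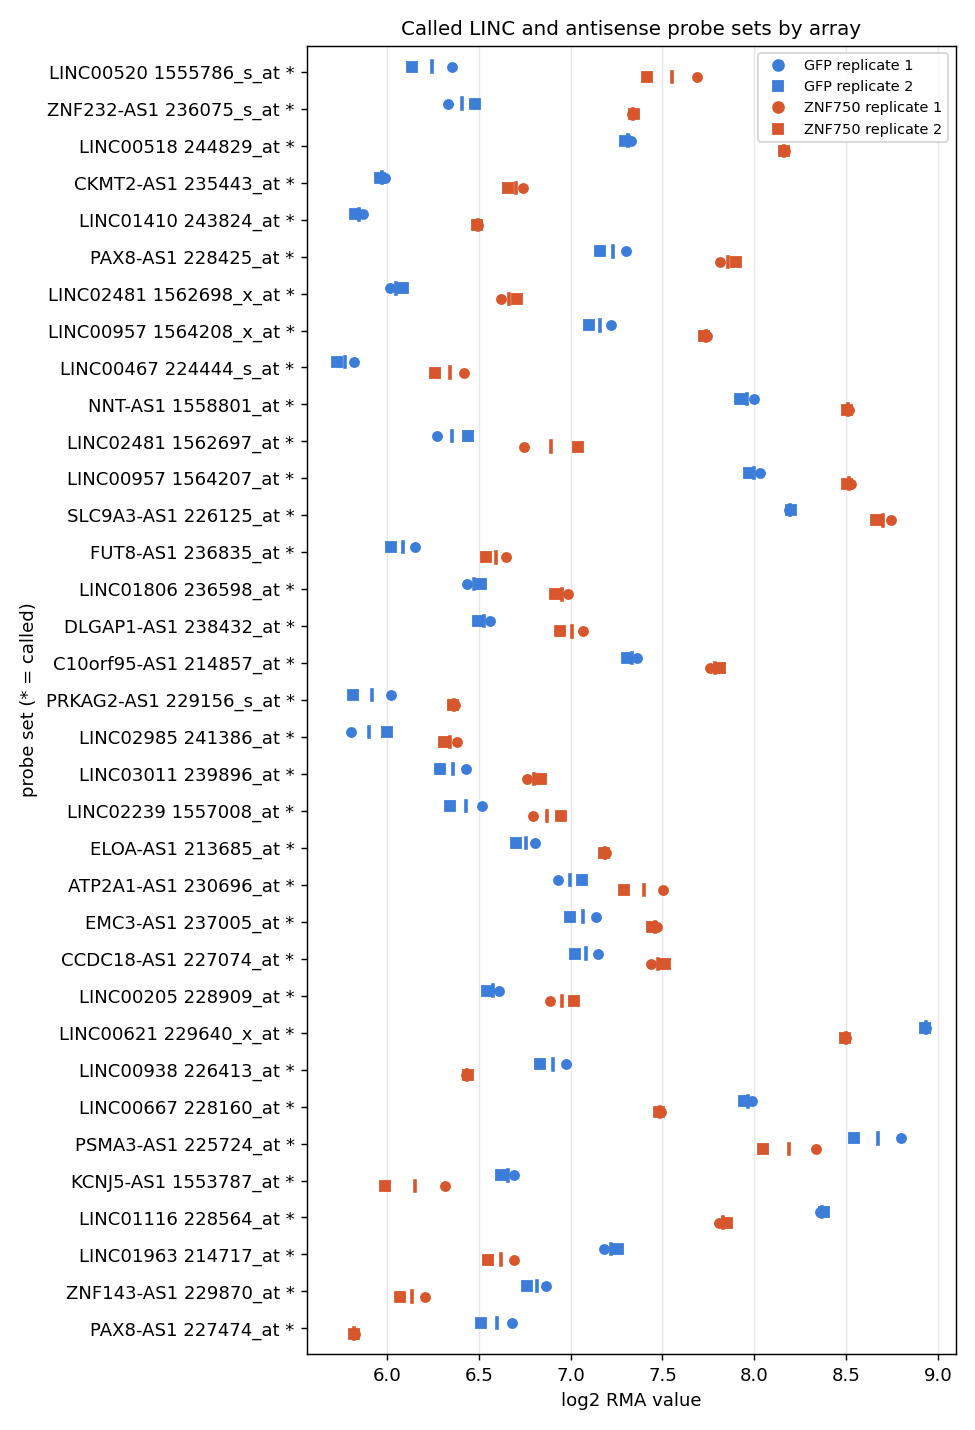
Log2 values (horizontal axis) of the 35 LINC and antisense probe sets that passed (vertical axis, ordered by difference), with 1 point per array and a bar at each group's mean. The groups do not overlap in any of them, but they are shown because they passed. Of all probe sets with a mean of 6 or more, 28.7% lay wholly above and 39.7% wholly below. PAX8-AS1 appears both among those that rose and at the bottom as the largest fall.

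Sense partners were measured for 138 of the 150 antisense genes, in 157 pairs of probe sets, each sense gene taken at its probe set of highest mean. Among the 138 distinct sense genes 13 were higher (9.42%) and 22 lower (15.9%), against 6.39% and 8.75% of all 19775 genes. In 126 of the 157 pairs the sense gene had a mean of 6 or more. Over all probe sets of that brightness 7.65% were higher and 15.7% lower, close to the shares of the sense genes. Where the antisense probe set had risen, 0 sense genes passed as higher, 2 as lower and 10 did not pass. Where it had fallen, 0 passed as higher, 1 as lower and 3 did not pass. At an unadjusted limma p under 0.05, 2 sense genes were higher and 5 lower beside the 12 antisense probe sets that had risen, and 0 were higher and 2 lower beside the 4 that had fallen. NNT, the mitochondrial transhydrogenase, fell by 0.77 on the log2 scale (SE 0.096, adjusted p = 0.00399) while NNT-AS1 rose. PRKAG2, a regulatory subunit of AMP-activated kinase, fell (-0.30 ± 0.066, adjusted p = 0.0293) while PRKAG2-AS1 rose. PSMA3, a proteasome subunit, fell together with PSMA3-AS1 (-0.23 ± 0.045, adjusted p = 0.0181).

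The partners of the other changed antisense genes did not pass. ZNF232 differed by 0.13 ± 0.067, CKMT2 by 0.02 ± 0.11, ZNF143 by 0.14 ± 0.063 and PAX8 by -0.12 ± 0.047. The sign of the difference was the same in 87 of the 157 pairs. Across the pairs, which share the same 4 arrays, Pearson's r between the differences was 0.12, given as a description. Whether each probe set reads the strand its symbol names was not checked, since probe sequences were not used here.

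**Figure D5:**
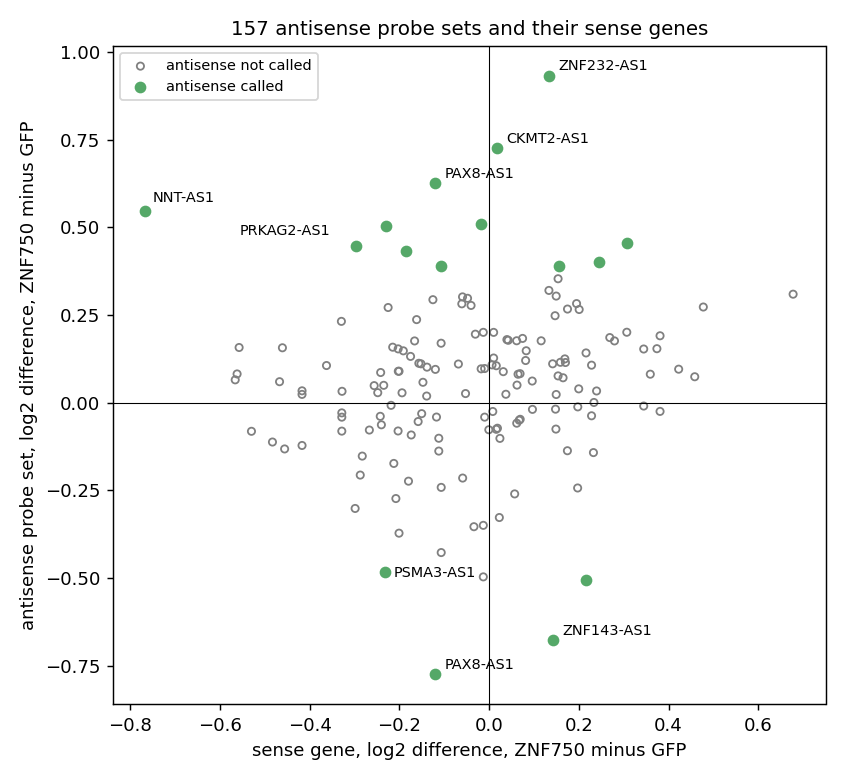
Log2 difference of the antisense probe set (vertical axis) against that of its sense gene (horizontal axis), ZNF750-labelled minus GFP, for 157 pairs, with filled points where the antisense probe set passed. NNT-AS1 lies at upper left, its sense gene lower by 0.77 and the antisense higher by 0.55, and most filled points lie near 0 on the horizontal axis.

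Promoters were scanned for CCNNAGGC, an element described for ZNF750, and for CCNCNCCC, a GC-rich box of the kind bound by KLF4, a partner of ZNF750. N is any base, both strands were read, and neither motif contains the other. The windows run from 250 bases before to 50 after the gene start, in RefSeq (GRCh38.p14), and 197 of the 263 genes had one. CCNNAGGC was found in 38.1% of the 197, in 27.2% of all 27305 promoters in the table, in 8 of the 21 promoters of genes that were higher (38.1%) and in 1 of the 11 of genes that were lower. Among the lncRNA genes that did not pass it was found in 66 of 166 (39.8%), about the share of the genes that were higher. CCNCNCCC was found in 71.6% of the 197 and 55.1% of all promoters, in 13 of the 21, in 9 of the 11 and in 120 of the 166. A match is a run of letters and not a bound site, and binding was not measured.

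The promoters of 3 genes that rose and 1 that fell are shown as examples from those described above with the value of every array. They do not stand for the rest. Of other genes that rose and are so described, CKMT2-AS1, SNHG32 and MIR550A3HG have 0 matches and MIR210HG has 1. The 1 lower gene with a match, LINC00667, is not shown. Capitals mark CCNNAGGC on either strand: NNT-AS1 has 3 matches, ZNF232-AS1 has 1, and MALAT1 and LINC01116 have 0 in this window.
MALAT1 (chr11:65497488-65497787, plus strand): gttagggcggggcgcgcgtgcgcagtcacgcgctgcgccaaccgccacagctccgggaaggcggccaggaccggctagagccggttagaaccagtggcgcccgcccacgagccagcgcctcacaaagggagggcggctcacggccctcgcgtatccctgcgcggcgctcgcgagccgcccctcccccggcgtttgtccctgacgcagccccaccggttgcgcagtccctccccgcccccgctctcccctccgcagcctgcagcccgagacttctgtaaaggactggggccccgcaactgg
ZNF232-AS1 (chr17:5111685-5111984, plus strand): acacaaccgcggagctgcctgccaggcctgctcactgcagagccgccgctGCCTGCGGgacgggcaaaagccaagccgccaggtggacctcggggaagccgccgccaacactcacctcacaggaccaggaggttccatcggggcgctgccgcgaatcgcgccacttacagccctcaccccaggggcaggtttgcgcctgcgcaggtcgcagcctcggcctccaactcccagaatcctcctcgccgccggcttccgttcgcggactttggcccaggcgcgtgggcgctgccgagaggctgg
NNT-AS1 (chr5:43603181-43603480, minus strand): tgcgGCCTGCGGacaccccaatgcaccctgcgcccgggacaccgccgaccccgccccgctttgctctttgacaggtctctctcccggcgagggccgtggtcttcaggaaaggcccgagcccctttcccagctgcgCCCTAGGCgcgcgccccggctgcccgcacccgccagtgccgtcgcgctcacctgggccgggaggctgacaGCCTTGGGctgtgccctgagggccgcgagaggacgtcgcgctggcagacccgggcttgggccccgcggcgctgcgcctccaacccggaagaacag
LINC01116 (chr2:176637560-176637859, minus strand): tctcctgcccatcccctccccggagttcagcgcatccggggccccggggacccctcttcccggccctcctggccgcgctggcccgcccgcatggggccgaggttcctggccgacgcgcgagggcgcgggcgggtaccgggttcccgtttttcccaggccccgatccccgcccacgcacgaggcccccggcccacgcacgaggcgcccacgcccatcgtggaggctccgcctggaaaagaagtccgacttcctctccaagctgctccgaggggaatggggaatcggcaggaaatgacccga

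Several lncRNAs with means of 7 or more did not pass, and those named here were chosen after their values were seen. FGD5-AS1 (224644_at) differed by 0.02, EPB41L4A-AS1 by 0.03, the brain-conserved OIP5-AS1 by -0.12 to 0.03 over 3 probe sets, and KRT10-AS1, opposite a suprabasal keratin gene, by -0.05. Their standard errors lay between 0.061 and 0.15, so differences of this size lay within the spread of the arrays.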

How the data were processed

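RNA of 4 CaSki samples was hybridized to 1 HG-U133 Plus 2.0 array each. The authors deposited log2 values per probe set, made with RMA per the submitters' processing notes, with version and annotation build not given in the sources used here. These values were used as deposited. Depth does not apply to arrays, and the 2 arrays per group limit the precision. An exact permutation of 2 against 2 cannot go below p = 0.333.

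Probe sets were named by the platform annotation where it gave 1 symbol (41091 of 54613; 1801 had several and 11721 none), and 62 control probe sets were left out. The fit was limma 3.58.1 in R 4.3.3 (lmFit, eBayes with an intensity trend, 2 residual degrees of freedom) over all 54613 probe sets, with Benjamini-Hochberg adjustment and a threshold of 0.05, checked on simulated data. "Rose", "fell", "higher" and "lower" in counts mean past that threshold. Named were all MALAT1, SNHG and microRNA host probe sets and, among LINC and antisense probe sets, the 12 higher and the lower ones with the largest change, LINC00205 and CCDC18-AS1 to complete the called ones, and others as stated. For coding genes the probe set of highest mean was used. The members and the lists were chosen with earlier results of these data known. Alternatives were no trend, a robust prior, cyclic loess, another centring, filters on dim or cross-hybridizing probe sets, gene means, a replicate block and leaving out each array. The replicate numbers share only a number: deviations of same-numbered arrays correlated at 0.134 over all probe sets, with 2 pairs.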

Additional observations from a re-analysis of the deposited data

How the results depend on the processing

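The main counts were 37 higher and 13 lower lncRNA probe sets with a median difference of 0.096. Without limma's intensity trend 20 were higher and 4 lower, against 520 and 754 over all probe sets. Centring on probe sets with a mean of 6 or more gave 58 higher and a median of 0.159, and turned the split over all probe sets from 2348 higher and 3927 lower to 4476 and 3406. Cyclic loess gave a median of 0.108. Fitting only probe sets with a mean of 6 or more gave 20 lower. Without _x_at and _s_at probe sets 21 were higher. The mean of a gene's probe sets gave 21 higher and a median of 0.081. A mean of 7 or more for membership gave 20 higher, 8 lower and a median of 0.055. Leaving out 1 array gave 0 to 11 higher, 0 lower and medians of 0.079 to 0.112. With the replicate block 31 were higher and 16 lower, although 2 pairs with r = 0.134 do not establish a pairing. Values near 0 changed sign. MIR1915HG (1555922_at) gave 0.02 under centring, 0.01 as gene mean and -0.16 to 0.08 (0.02 without GFP replicate 2) when 1 array was left out. SNHG33 (228275_at) gave 0.00 under centring, 0.05 as gene mean and -0.16 to 0.04 when 1 array was left out. MIR181A2HG gave 0.02 without ZNF750 replicate 2, MIR1-1HG 0.02 under centring, and MIR200CHG -0.26 to 0.27 (-0.03 without GFP replicate 1) when 1 array was left out. PAX8-AS1 (228425_at) gave -0.08 as gene mean. The cause was not tested. Of the 48 called probe sets named by rule, 24 did not pass without the trend and 5 with the block. LINC00205 and CCDC18-AS1, called but outside that rule, passed in neither.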

Other observations

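Long noncoding RNAs whose symbols fall outside the naming rule moved both ways. Of 21 measured from a list of 24, 3 were higher, 5 lower and 13 did not pass, with a median difference of 0.081. Over all 19775 genes 6.39% were higher and 8.75% lower, with a median of 0.036. Means of 6 or more were found for 16 of the 21, and of all probe sets with such means 7.65% were higher and 15.7% lower. UCA1, an RNA of urothelial and squamous tumours, read 11.31 and 11.35 with GFP and 12.05 and 12.12 with the ZNF750 label (0.76 ± 0.043, limma adjusted p = 0.000289). TINCR, an RNA induced in differentiating epidermis, read 6.32 and 6.45 with GFP and 7.17 and 7.03 with the ZNF750 label (0.71 ± 0.097, adjusted p = 0.00510). WAKMAR2 read 5.27 and 5.07 with GFP and 7.21 and 7.05 with the ZNF750 label (1.96 ± 0.11). DANCR, an RNA that restrains epidermal differentiation, read 11.36 and 11.42 with GFP and 10.84 and 10.86 with the ZNF750 label (-0.55 ± 0.044, adjusted p = 0.000865). CYTOR (-0.95 ± 0.16), CRNDE (-0.37 ± 0.057), TP53TG1 (-0.35 ± 0.076) and NORAD (-0.28 ± 0.040) also fell. In none of these 8 did the groups overlap, but they were named because they passed. Groups were also apart in 15 of the 21 listed. Of all probe sets with a mean of 6 or more, 28.7% lay wholly above and 39.7% wholly below.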
